A study of Aspergillus cristatus with 9 samples.

Results

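A group of 3 neighbouring carbohydrate-degrading genes of the golden flower fungus *A. cristatus* was followed across the whole RNA-seq experiment: *SI65_00177*, annotated as an acid alpha-amylase, *SI65_00180*, annotated as a glucoamylase, and *SI65_00186*, listed in the starch and sucrose pathway. They are 3 of the 10227 genes in the deposited table, lie close together in gene order on contig 1, and were picked with their FPKM (fragment density, corrected for gene length and for the mapped total of the library) in these libraries already known. Their own levels and fold changes are therefore given as a description, without a test. Tests are given for other genes only.

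All 9 libraries came from *Eurotium cristatum* strain JLU (the name the labels use for the same fungus), first grown on PDA plates for 10 days. EcRS (3 libraries) was fungus placed on sterilized *P. ginseng* roots at 28 °C for 1 week, and EcSQ (3 libraries) was fungus treated in the same way on roots of *P. notoginseng*. EcCK (3 libraries) was the fungus without root contact. The labels call every sample 1 week old mycelium, whereas the methods of the study describe the EcCK material as spores from plates. Medium, growth form and root contact changed together and cannot be told apart, and separate cultures are stated nowhere for the 3 libraries of a group. The p-values therefore reflect only how far libraries differ, and that spread may be technical. In such bulk samples fewer cells of a kind and less RNA per cell cannot be told apart.

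Starch is broken down by enzymes that divide the work. Alpha-amylases cut the alpha-1,4 bonds inside the chain, glucoamylases release glucose from the chain ends, and alpha-glucosidases split maltose and other short fragments. In *A. oryzae* and *A. niger* the secreted members of this group are known to be switched on by starch or maltose and held down by glucose. Exo-1,3-beta-glucanases act on a different polymer, the beta-1,3-glucan of fungal cell walls, and have no part in starch breakdown.

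The label of the third gene did not stand up to its annotation. *SI65_00177* and *SI65_00180* carried the enzyme codes of an alpha-amylase and a glucoamylase. *SI65_00186* is described as a hypothetical protein with the code of a glucan 1,3-beta-glucosidase, an exo-1,3-beta-glucanase, and its GO terms name no activity. It shares the KEGG starch and sucrose pathway with the others but is not amylolytic by annotation, and it is called an exo-1,3-beta-glucanase gene below.

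On contig 1 (number and positions as in the deposited table), *SI65_00177* runs on the plus strand from 463204 to 465453 in 9 exons, with a coding length of 1854 bases. *SI65_00180* follows on the plus strand from 469670 to 471264 in 3 exons (coding length 1485 bases). *SI65_00186* lies on the minus strand from 486729 to 489220 in 4 exons (coding length 2349 bases). The 3 genes span 26.0 kb. Directly before them, on the minus strand from 460042 to 462149, is a second glucoamylase gene, *SI65_00176*, whose GO terms include starch binding. It stands head to head with *SI65_00177* with 1054 bases between them, and was not one of the 3 genes chosen, so it could be tested.

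The depth was similar in all libraries, at 45891944 to 61627866 estimated counts in listed genes. These counts were made from coverage and are not whole fragments. EcSQ replicate 3 stood apart from the other EcSQ libraries: its TMM (trimmed mean of M-values) factor beside EcCK was 0.499, against 1.48 and 1.13 in EcSQ replicates 1 and 2. Units outside the listed genes made up 23.1% to 26.9% of the total in EcRS, 12.1% to 14.9% in EcSQ and 12.1% to 14.1% in EcCK. The sum over 185 genes annotated to conidiation or spores was 39420 to 44840 FPKM in EcRS, 35080 to 58210 in EcSQ and 23770 to 32780 in EcCK. The sum over 211 genes annotated to hyphal growth was 31570 to 34150 FPKM in EcRS, 24670 to 41020 in EcSQ and 16330 to 22910 in EcCK. Each gene of both lists was above 0 in some library of every group. In EcRS against EcCK, 23 of 181 tested spore genes were up- (12.7%) and 62 down-regulated (34.3%), and 32 (15.7%) and 63 (30.9%) of 204 hyphal genes, beside 12.8% and 47.6% of all genes. Both sums were thus higher in every root library than in every control library. Their part in the results below was not tested.

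The alpha-amylase gene *SI65_00177*, which encodes the enzyme that opens the starch chain, was far more abundant on both roots than in the control. It had 60.6, 60.5 and 80.4 FPKM in EcRS, 196.8, 112.1 and 154.8 FPKM in EcSQ, and 1.04, 3.27 and 5.59 FPKM in EcCK. The 3 groups did not overlap, and their order was EcSQ, EcRS, EcCK from high to low. The mean was 67.2 ± 11.5 FPKM in EcRS, against 3.30 ± 2.28 FPKM in EcCK (SD, n = 3 each), a ratio of 20.4. In EcSQ it was 154.5 ± 42.4 FPKM (SD, n = 3), a ratio of 46.8 over the same EcCK libraries. The lowest EcRS library was still 10.8 times the highest EcCK library. Among all genes ordered by FPKM within a library, *SI65_00177* held places 1446 to 1666 in EcRS, 730 to 1237 in EcSQ and 7381 to 8911 in EcCK.

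The glucoamylase gene *SI65_00180*, whose product frees glucose from the chain ends, showed the largest ratio of the 3 on ginseng roots. It had 69.6, 77.3 and 80.8 FPKM in EcRS, 72.4, 43.4 and 21.9 FPKM in EcSQ, and 0.592, 1.07 and 2.08 FPKM in EcCK. Every root library lay above every control library, while EcRS and EcSQ overlapped because EcSQ replicate 1 reached the EcRS level. The EcRS libraries were close together, with an SD of 7.52% of the mean, whereas the SD of EcSQ was 55.2% of its mean. The mean of 75.9 ± 5.71 FPKM in EcRS was 60.8 times that of 1.25 ± 0.761 FPKM in EcCK (SD, n = 3 each). In EcSQ the mean of 45.9 ± 25.3 FPKM (SD, n = 3) was 36.8 times the EcCK mean. The EcCK values rested on 58, 113 and 215 estimated counts, and those of *SI65_00177* on 127, 431 and 720.

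*SI65_00186*, the exo-1,3-beta-glucanase gene, went the other way. It had 20.3, 22.0 and 24.2 FPKM in EcRS, 226.2, 154.8 and 21.5 FPKM in EcSQ, and 391.2, 518.0 and 330.7 FPKM in EcCK. The EcRS libraries all lay far below the control, with a mean of 22.2 ± 1.96 FPKM in EcRS, against 413.3 ± 95.6 FPKM in EcCK (SD, n = 3 each), so that EcCK was 18.6 times as high. EcSQ was divided: replicates 1 and 2 lay below the control but well above EcRS, and replicate 3 lay within the EcRS range. The EcSQ mean of 134.2 ± 103.9 FPKM (SD, n = 3) was 0.325 of the EcCK mean, and without EcSQ replicate 3 it was 190.5 FPKM, or 0.461 of it. The gene held places 2957 to 3138 in EcRS, 633 to 2753 in EcSQ and 233 to 402 in EcCK.

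**Figure D1:**
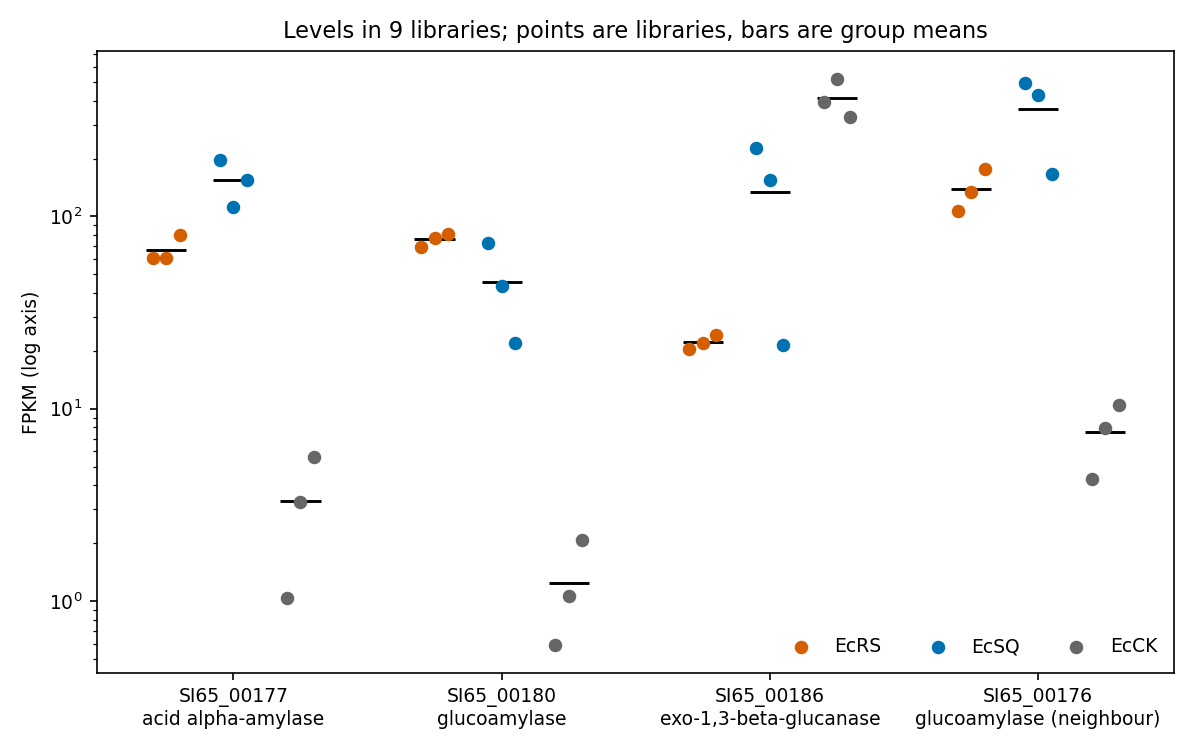
FPKM (log axis) of *SI65_00177*, *SI65_00180*, *SI65_00186* and the neighbouring *SI65_00176* in EcRS, EcSQ and EcCK, 3 libraries each, with a point for every library and a bar for the group mean. The starch genes lie between 21.9 and 496 FPKM in the root libraries and between 0.592 and 10.4 FPKM in EcCK, whereas *SI65_00186* is highest in EcCK, at 330.7 to 518.0 FPKM, and EcSQ replicate 3 lies at the EcRS level for it.

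In the fit with edgeR over all genes, scaled as the deposited FPKM, the log2 fold changes of EcRS over EcCK were 4.35 for *SI65_00177*, 5.92 for *SI65_00180* and -4.22 for *SI65_00186*. The median of all 8925 genes tested was itself at -0.96 in this comparison, and at -0.11 with TMM scaling. Relative to that median the values were 5.30, 6.88 and -3.26, and with TMM scaling 5.39, 6.95 and -3.31. For EcSQ over EcCK the log2 fold changes were 5.55, 5.20 and -1.62, where the median of all 9160 genes was -0.01. Both comparisons use the same 3 EcCK libraries. Calls required a 2-fold change with an adjusted p no higher than 0.05. Since the genes were chosen on these libraries, nothing is read from their calls. Their calls enter some counts of gene lists below, and those counts are a description as far as they rest on these genes. With edgeR 60.5% of all genes tested were called in EcRS against EcCK, 12.8% up and 47.6% down. In EcSQ against EcCK it called 3.59% of all genes, 1.72% up and 1.87% down.

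The roots were also set against each other. *SI65_00177* was lower in every EcRS library than in every EcSQ library, at 0.435 of the EcSQ mean (log2 fold change -1.20, or -0.37 relative to the median gene at -0.84). *SI65_00180* was 1.65 times as high in EcRS as in EcSQ on average, with overlap (log2 fold change 0.73, or 1.56 relative to the median gene). *SI65_00186* was at 0.165 of the EcSQ mean in EcRS, with overlap through EcSQ replicate 3 (log2 fold change -2.60, or -1.76 relative to the median gene). Without that library the log2 fold changes were -1.20 for *SI65_00177*, 0.39 for *SI65_00180* and -3.10 for *SI65_00186*, where the median gene was at -1.08. Over all genes edgeR called 0.0342% between the roots.

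Ratios of genes within single libraries do not depend on scaling between libraries. The FPKM of *SI65_00180* divided by that of *SI65_00177* was 1.15, 1.28 and 1.00 in EcRS, 0.368, 0.387 and 0.141 in EcSQ, and 0.568, 0.327 and 0.372 in EcCK. The alpha-amylase and the glucoamylase *SI65_00180* were thus about level on ginseng roots, while on *P. notoginseng* roots and in the control the amylase was ahead in every library. The ratio in EcRS did not overlap that of either other group, while EcSQ and EcCK overlapped. The FPKM of the other glucoamylase gene, *SI65_00176*, divided by that of *SI65_00177* was 1.77, 2.22 and 2.19 in EcRS, 2.52, 3.82 and 1.07 in EcSQ, and 4.12, 2.44 and 1.86 in EcCK, and there the 3 groups overlapped. The FPKM of *SI65_00186* divided by that of *SI65_00177* was 0.301 to 0.363 in EcRS, 0.139 to 1.38 in EcSQ and 59.1 to 375 in EcCK.

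Over the 9 libraries the log2(FPKM + 1) of *SI65_00177* and *SI65_00180* had a Pearson correlation of 0.92. That of *SI65_00186* was -0.66 with *SI65_00177* and -0.75 with *SI65_00180*. These values follow mainly from the distance between the groups, and the points share library and scaling, so they are a description only.

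The adjacent glucoamylase gene *SI65_00176* was also higher on both roots than in the control. It had 107.0, 134.6 and 176.2 FPKM in EcRS, 496.2, 427.6 and 165.7 FPKM in EcSQ, and 4.30, 7.96 and 10.4 FPKM in EcCK. All root libraries lay above all control libraries, and EcRS and EcSQ overlapped through EcSQ replicate 3. It was up-regulated in EcRS against EcCK (log2 fold change 4.20 ± 0.40 SE, edgeR adjusted p = 4.06e-05) and kept an adjusted p of at most 0.00125 in 16 alternative fits. In EcSQ against EcCK it was up-regulated as well (5.59 ± 0.68, edgeR adjusted p = 0.018), but the adjusted p was 0.0744, 0.0519 and 0.139 without EcCK replicate 1, EcCK replicate 2 or EcSQ replicate 2, over a range of up to 0.139 in the 16 alternatives. Between EcRS and EcSQ it was not called (-1.38 ± 0.45, edgeR adjusted p = 0.11). Without EcSQ replicate 3 it was called lower in EcRS (-1.73, edgeR adjusted p = 0.00017). In that fit 49.8% of all genes were called lower in EcRS too, and the median gene was at -1.08.

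Up- and down-regulated genes were interleaved along this stretch. *SI65_00176*, *SI65_00177* and *SI65_00180* fit into 11.2 kb, and *SI65_00186* starts 15.5 kb beyond *SI65_00180*. Between *SI65_00177* and *SI65_00180* lie 2 genes, and between *SI65_00180* and *SI65_00186* lie 5. Of these 7 genes, 6 could be tested in EcRS against EcCK and 0 were up-regulated, where 12.8% of all genes were. The 6 were too few to set the stretch apart from that share. With edgeR, 0 were also up at an unadjusted p under 0.05, and 1 with TMM scaling or DESeq2, which called 0. In EcSQ against EcCK edgeR called 0 of the 7 in either direction, where it called only 3.59% of all genes. Of the 7, 0 had an unadjusted p under 0.05 with edgeR, while DESeq2 called *SI65_00185* up. In EcRS 3 of the 6 were down-regulated, beside 12.8% up and 47.6% down of all genes. *SI65_00182*, annotated only as mitochondrial, fell to 0.475 FPKM in EcRS, against 4.60 FPKM in EcCK (log2 fold change -3.27 ± 0.40, edgeR adjusted p = 1.34e-04). *SI65_00179*, with a ribonuclease term, fell to 2.32 FPKM in EcRS, against 8.64 FPKM in EcCK (-1.89 ± 0.35, edgeR adjusted p = 0.0013). *SI65_00184*, a hypothetical protein, had 1.71 FPKM in EcRS and 4.16 FPKM in EcCK (-1.28 ± 0.37, edgeR adjusted p = 0.0126), but was not called with TMM scaling (-0.44, adjusted p = 0.27).

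The other genes of the stretch were not called with edgeR in EcRS against EcCK, or were too low to test. *SI65_00178* had 7.68, 7.61 and 6.81 FPKM in EcRS, 13.8, 11.5 and 7.66 FPKM in EcSQ, and 8.58, 8.40 and 13.1 FPKM in EcCK. Every EcRS library lay below every EcCK library, while EcSQ overlapped both other groups. It ends 148 bases from the end of *SI65_00177* on the other strand, and whether the libraries kept the strand is not given. *SI65_00181*, with a sterol binding term, was the most abundant of the stretch, at 267.2 to 528.3 FPKM in EcRS, 82.1 to 832.3 in EcSQ and 361.8 to 678.7 in EcCK. *SI65_00185* had 3.16 to 4.82 FPKM in EcRS, 4.14 to 13.9 in EcSQ and 2.52 to 5.33 in EcCK, and *SI65_00183* and *SI65_00175* stayed at or under 2.21 FPKM in all 9 libraries. *SI65_00187*, next beyond *SI65_00186*, had 21.1 to 27.2 FPKM in EcRS, 30.9 to 46.9 in EcSQ and 35.8 to 48.1 in EcCK. EcRS and EcCK did not overlap for it, and it was not called because the change was under 2-fold (edgeR adjusted p = 0.0138).

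**Figure D2:**
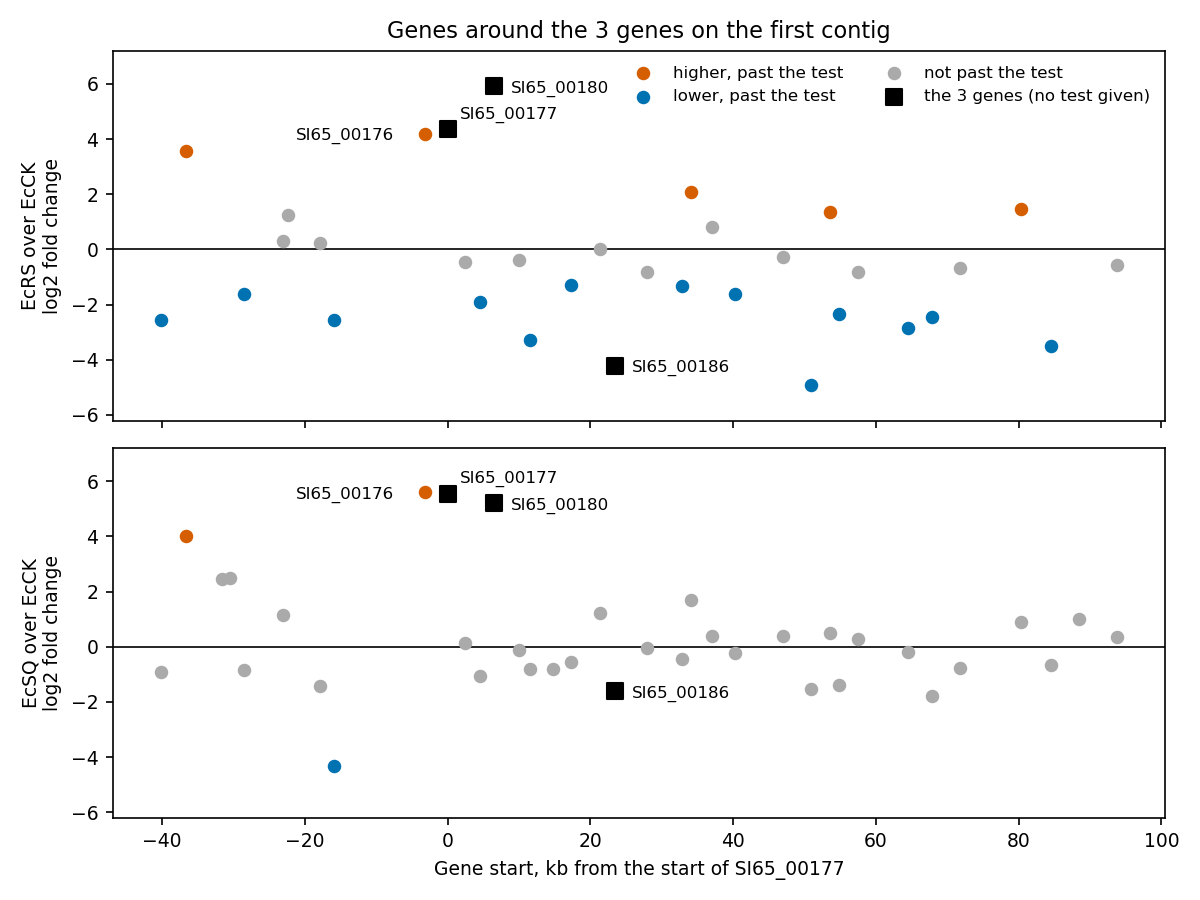
Log2 fold change of EcRS over EcCK (upper) and EcSQ over EcCK (lower) against the start of each gene in kb from the start of *SI65_00177*, for the tested genes from 20 places before *SI65_00177* to 20 places after *SI65_00186*. Black squares are the 3 genes, orange and blue points are other genes called up and down with edgeR, and grey points were not called. *SI65_00176* (4.20 upper, 5.59 lower) lies beside *SI65_00177* and *SI65_00180*, and the tested genes between *SI65_00177* and *SI65_00186*, other than *SI65_00180*, lie at 0.01 or below in the upper plot.

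Taking 20 genes on either side, 47 neighbours other than the 3 genes were listed and 30 could be tested in EcRS against EcCK, of which 5 were up- and 13 down-regulated, or 16.7% and 43.3%. These shares were close to the 12.8% and 47.6% of all genes. The largest change among them was that of *SI65_00193*, annotated to DNA binding and a spliceosomal complex, which fell to 0.487 FPKM in EcRS, against 15.0 FPKM in EcCK (log2 fold change -4.93 ± 0.33, edgeR adjusted p = 1.39e-05). In EcSQ against EcCK, 2 of 33 tested neighbours were up- and 1 was down-regulated, or 6.06% and 3.03%, beside 1.72% and 1.87% of all genes. The 2 were *SI65_00176* and *SI65_00163*, which was named after its values were seen. *SI65_00163* starts at -36.7 kb relative to *SI65_00177* and had means of 736.9 FPKM in EcRS, 1003 FPKM in EcSQ and 62.2 FPKM in EcCK.

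The starch genes of this stretch were next set against all genes annotated to starch breakdown. The amylolytic list, chosen from the enzyme codes and GO terms of the table, holds 11 genes. *SI65_00176*, *SI65_00177* and *SI65_00180* summed to 237 to 337 FPKM in EcRS, 342 to 765 FPKM in EcSQ and 5.93 to 18.1 FPKM in EcCK. Their share of the summed FPKM of the list was 66.9%, 68.7% and 68.9% in EcRS, 61.0%, 57.5% and 80.2% in EcSQ, and 4.66%, 6.63% and 6.27% in EcCK. Since 2 of the 3 summed genes were chosen for their FPKM in these libraries, this share is a description only. Without those 2 genes, *SI65_00176* made up 47.7%, 52.0% and 53.7% of the remaining 9 genes in EcRS, 50.4%, 49.8% and 66.2% in EcSQ, and 3.42%, 4.40% and 3.71% in EcCK. The root groups overlapped in both shares and lay above the control. The summed FPKM of the list itself was 355 to 490 in EcRS, 427 to 1254 in EcSQ and 127 to 289 in EcCK.

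**Figure D3:**
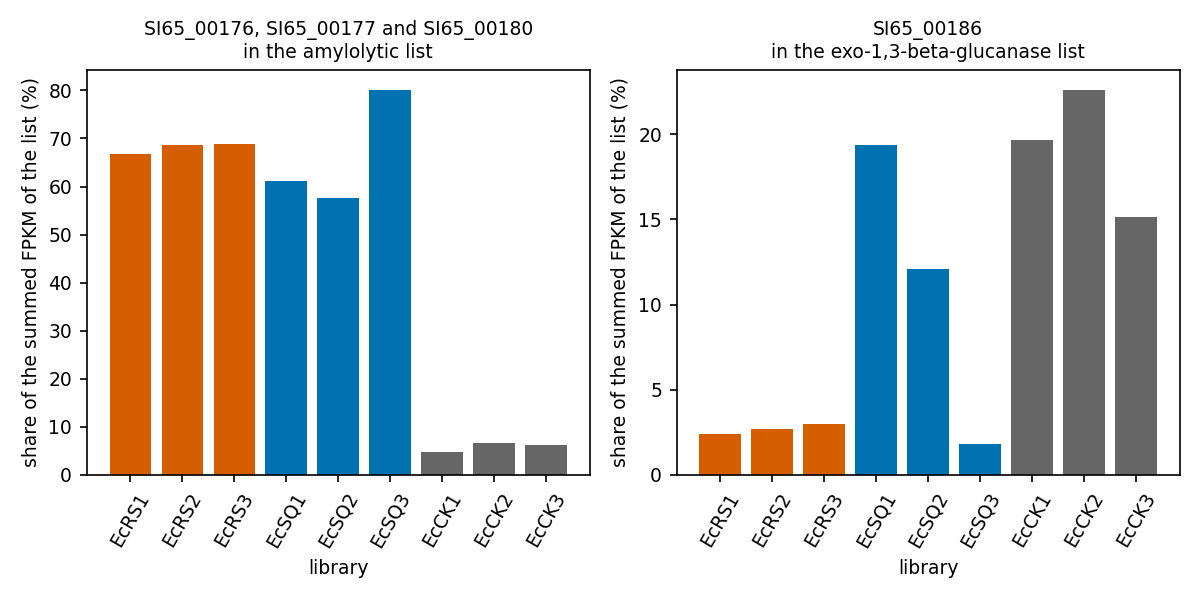
Share of the summed FPKM of a gene list in each of the 9 libraries (bars, in percent, from 0). On the left, *SI65_00176*, *SI65_00177* and *SI65_00180* within the amylolytic list reach 57.5% to 80.2% in EcRS and EcSQ libraries and 4.66% to 6.63% in EcCK, a description since 2 of these genes were chosen on these libraries, and on the right *SI65_00186* within the exo-1,3-beta-glucanase list reaches 2.40% to 2.97% in EcRS, 1.80% (replicate 3) to 19.4% in EcSQ and 15.1% to 22.6% in EcCK.

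In EcRS against EcCK, 3 of the 11 amylolytic genes were up-regulated, which are *SI65_00176* and the 2 chosen starch genes, 4 were down-regulated and 4 were not called. The median log2 fold change of the list was -0.73, beside -0.96 over all genes. Without the chosen genes 1 of 9 was up (11.1%) and 4 were down (44.4%), close to the 12.8% and 47.6% of all genes. With TMM scaling 4 of 11 were up and 3 down, where 26.4% of all genes were up and 31.4% down. *SI65_07573*, annotated as a subunit of glucosidase II, an enzyme that trims sugar chains of new proteins and does not digest starch, fell to 2.25 FPKM in EcRS, against 30.6 FPKM in EcCK (-3.76 ± 0.26, edgeR adjusted p = 1.43e-05). *SI65_05972*, an alpha-glucosidase, fell to 5.31 FPKM in EcRS, against 19.6 FPKM in EcCK (-1.88 ± 0.35, edgeR adjusted p = 0.00146), a call lost with DESeq2 (-0.99) and with all 9 libraries in one fit (adjusted p = 0.0885).

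The other falls in this list were of weakly expressed genes. *SI65_05514*, with the code of an alpha-amylase, had 1.75 FPKM in EcRS and 4.93 FPKM in EcCK (-1.48 ± 0.42, edgeR adjusted p = 0.0127), and was not called with TMM scaling (-0.72, adjusted p = 0.21). *SI65_01039*, with the code of a glucoamylase but GO terms of a zinc-binding oxidoreductase, had 0.150 FPKM in EcRS and 3.79 FPKM in EcCK (-4.60 ± 1.11, edgeR adjusted p = 0.00556), and the EcCK libraries differed widely, at 9.11, 1.41 and 0.842 FPKM. No alpha-amylase or glucoamylase gene outside the stretch was called up in this comparison with edgeR, TMM scaling, DESeq2 or limma. By code these are only *SI65_01039*, *SI65_05393*, *SI65_05514* and *SI65_05515*. They are too few to be set apart from all genes, of which edgeR called 12.8% up, and 26.4% with TMM scaling.

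The other 4 genes of the list were not called in EcRS against EcCK. The alpha-amylase-coded genes *SI65_05393* and *SI65_05515* had 10.8 to 14.6 and 23.1 to 27.0 FPKM in EcRS. In EcSQ they had 2.65 to 63.9 and 11.5 to 38.1 FPKM, and in EcCK 17.8 to 32.0 and 21.3 to 67.8 FPKM. *SI65_06414*, which carries the code of a trehalose-6-phosphate hydrolase, had 12.5 to 17.1 FPKM in EcRS, 3.73 to 51.8 in EcSQ and 14.0 to 27.5 in EcCK. The alpha-glucosidase gene *SI65_08264* (agdC) had 60.3 to 84.6 FPKM in EcRS, 62.7 to 252 in EcSQ and 14.1 to 84.4 in EcCK, so its groups overlapped. It was called up with TMM scaling and DESeq2.

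**Figure D4:**
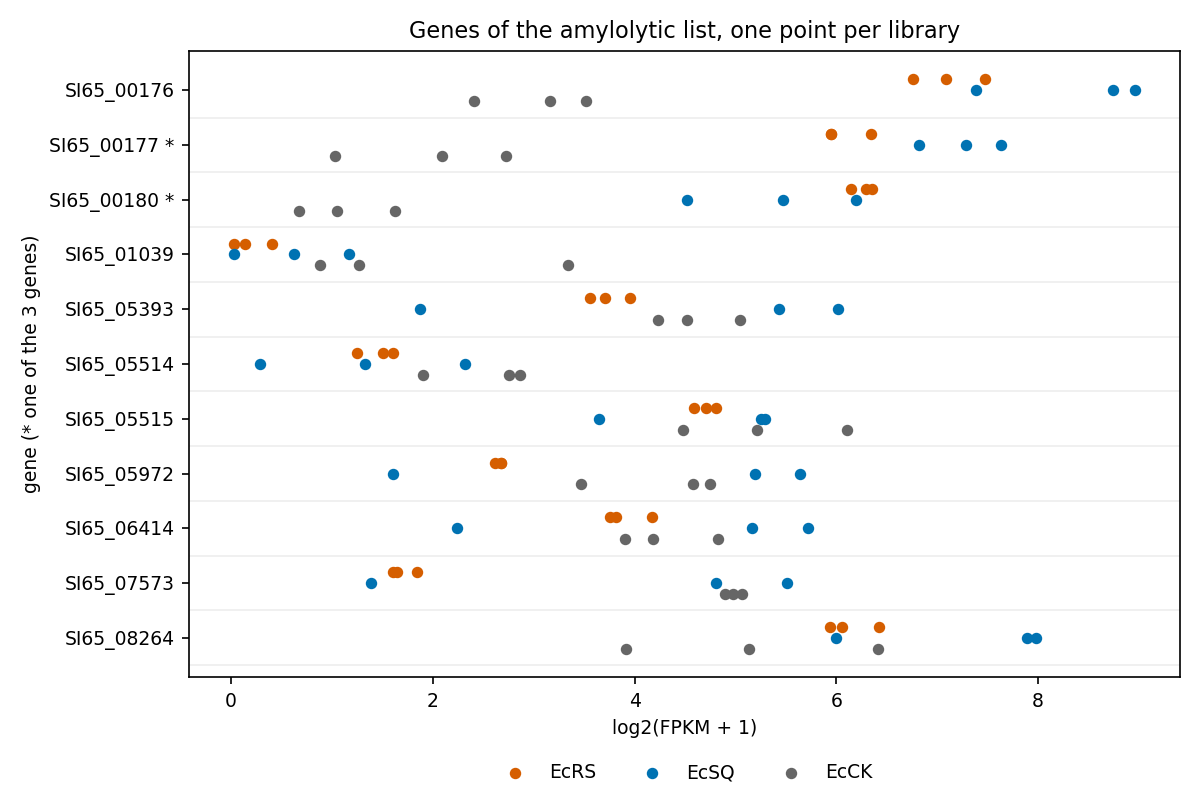
Log2(FPKM + 1) of the 11 genes of the amylolytic list, with a point for every library of EcRS, EcSQ and EcCK. The groups on roots lie to the right of EcCK without overlap for *SI65_00176*, *SI65_00177* and *SI65_00180* only, and in the other 8 genes EcSQ replicate 3 is the lowest EcSQ point, below all EcRS points in 7 of them. *SI65_00177* and *SI65_00180* were chosen on these libraries. How often either pattern occurs over all genes was not counted, so neither is shown to be particular to this list.

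In EcSQ against EcCK the amylolytic list had 3 genes up-regulated and 0 down-regulated of 11, where 1.72% and 1.87% of all genes were called. The 3 were again *SI65_00176* and the 2 chosen starch genes, and the median of the list was 0.60, beside -0.01 over all genes. Without the chosen genes, which were picked on these libraries, 1 of 9 was up and 0 down. With edgeR 0 were also down at an unadjusted p under 0.05, while DESeq2 called 4 up and 1 down, where it called 14.0% of all genes up and 11.4% down. Without EcCK replicate 1, EcCK replicate 2 or EcSQ replicate 2 no gene of the list was called, but over all genes those fits called only 0, 4 (1 up, 3 down) and 0. Without EcSQ replicate 3 there were 4 up and 0 down in the list, beside 907 up (9.88%) and 614 down (6.69%) of all 9178 genes tested.

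The exo-1,3-beta-glucanases, the enzyme group of *SI65_00186*, included more genes called down than up on ginseng roots, at a share near that of all genes. Of 11 genes with that code, 10 could be tested in EcRS against EcCK, and 6 were down-regulated, *SI65_00186* among them, and 0 up-regulated. With edgeR 0 were also up at an unadjusted p under 0.05, but with TMM scaling and with DESeq2 5 were down and 2 up, *SI65_00446* and *SI65_01456*. Over all genes 31.4% were down and 26.4% up with TMM scaling, and 31.5% and 27.2% with DESeq2. Without *SI65_00186* 5 of 9 were down, or 55.6%, beside 47.6% of all genes. The summed FPKM of the list was 811 to 847 in EcRS, 1169 to 1281 in EcSQ and 1990 to 2288 in EcCK, in 3 groups that did not overlap.

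*SI65_00186* made up 2.40%, 2.71% and 2.97% of that sum in EcRS, 19.4%, 12.1% and 1.80% in EcSQ, and 19.7%, 22.6% and 15.1% in EcCK. Most of the sum on roots came from other genes. *SI65_02326* (btgE), named for a family of cell wall glucosidases, fell to 329.4 FPKM in EcRS, against 852.9 FPKM in EcCK (-1.37 ± 0.37, edgeR adjusted p = 0.0102), but was not called with TMM scaling (-0.48, adjusted p = 0.168). *SI65_01456*, a putative glucan 1,3-beta-glucosidase A, had 191.6 to 267.6 FPKM in EcRS, 213.7 to 381.9 in EcSQ and 163.6 to 252.3 in EcCK. *SI65_07886* had 175.8 to 219.5 FPKM in EcRS, 119.5 to 212.5 in EcSQ and 174.4 to 589.7 in EcCK.

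The gene most like *SI65_00186* in size of change among its own enzyme group was *SI65_07885*, singled out after its values were seen. It had 17.1, 19.2 and 23.4 FPKM in EcRS, 46.0, 23.1 and 18.9 FPKM in EcSQ, and 266.6, 339.1 and 320.1 FPKM in EcCK. Unlike *SI65_00186*, it was low in all 3 EcSQ libraries. It was down-regulated in EcRS (-3.95 ± 0.27, edgeR adjusted p = 1.48e-05) and in EcSQ against EcCK (-3.39 ± 0.54, edgeR adjusted p = 0.0206), and in EcSQ the adjusted p ranged up to 0.151 over 16 alternatives. It was 0.151 without EcSQ replicate 2, 0.0885 without EcCK replicate 1 and 0.0844 without EcCK replicate 2. It was the only exo-1,3-beta-glucanase called with edgeR in EcSQ against EcCK.

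A further 3 genes of the group fell in EcRS at low levels. *SI65_06998* (glucan 1,3-beta-glucosidase D) had 0.525 FPKM in EcRS and 6.51 FPKM in EcCK (-3.62 ± 0.57, edgeR adjusted p = 5.07e-04). *SI65_03825* (btgC) had 0.638 FPKM in EcRS and 5.86 FPKM in EcCK (-3.19 ± 0.51, edgeR adjusted p = 5.61e-04). *SI65_06420* had 1.15 FPKM in EcRS and 9.10 FPKM in EcCK (-2.98 ± 0.37, edgeR adjusted p = 1.49e-04). *SI65_00446* had higher means on both roots than in the control, unlike *SI65_00186*. It had 2.25 to 6.47 FPKM in EcRS, 3.13 to 62.8 in EcSQ and 0.690 to 2.46 in EcCK, so EcRS and EcCK overlapped. It was not called with edgeR, but TMM scaling and DESeq2 called it up on both roots against EcCK. *SI65_05387* had 9.64 to 15.7 FPKM in EcRS, 25.4 to 38.4 in EcSQ and 10.5 to 20.9 in EcCK, and *SI65_00955* was too low to test.

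**Figure D5:**
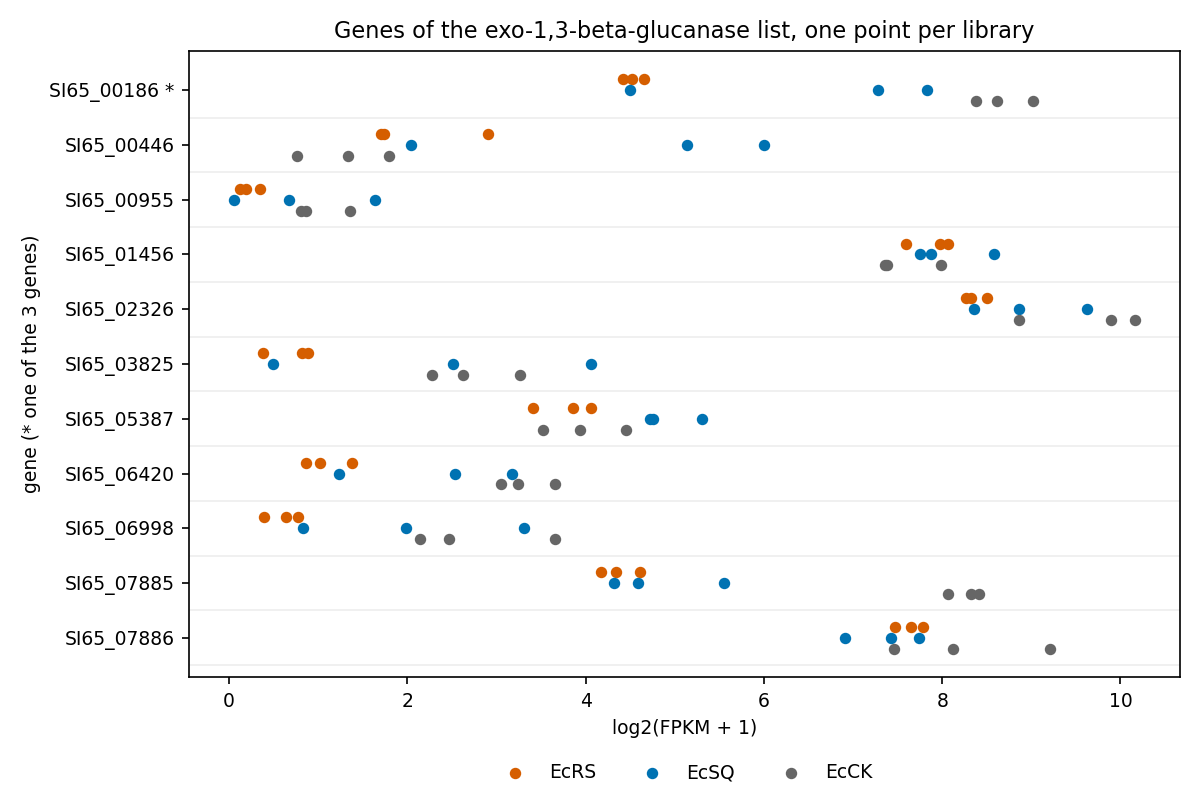
Log2(FPKM + 1) of the 11 genes of the exo-1,3-beta-glucanase list, with a point for every library of EcRS, EcSQ and EcCK. *SI65_00186* and *SI65_07885* show the widest gaps between EcRS and EcCK, and EcSQ replicates 1 and 2 lie near EcCK for *SI65_00186* and near EcRS for *SI65_07885*.

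In the wider starch and sucrose pathway more genes were lower than higher on ginseng roots. The KEGG pathway holds 76 genes, of which 71 could be tested in EcRS against EcCK. Of these, 9 were up-regulated, 39 were down-regulated and 23 were not called, with a median log2 fold change of -1.37, beside -0.96 over all genes. Without the 3 chosen genes, 7 of 68 were up (10.3%) and 38 down (55.9%), beside 12.8% and 47.6% of all genes. The split depended on the scaling: with TMM 18 were up and 30 down, where 26.4% of all genes were up and 31.4% down. The other 6 up-regulated genes beside *SI65_00176*, named after their values were seen, belong to other steps than starch cleavage. *SI65_07281* and *SI65_02999* carry the code of invertase, which splits sucrose, with 147.7 and 11.6 FPKM in EcRS and 12.2 and 1.77 FPKM in EcCK. *SI65_07565* is hexokinase, *SI65_01409* and *SI65_10009* are beta-glucosidases, and *SI65_06076* makes the sugar donor UDP-glucose.

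The 4 largest changes of the pathway in EcRS were that of *SI65_00180* and 3 falls. *SI65_04660*, a trehalose-phosphate synthase, had 3.28, 2.76 and 0.572 FPKM in EcRS, 3.94, 0.780 and 1.74 FPKM in EcSQ, and 3308, 772 and 18.6 FPKM in EcCK. The control libraries differed greatly, and the fall passed in EcRS (-9.27 ± 1.77, edgeR adjusted p = 0.00158) with an uncertain size. *SI65_04812* and *SI65_04813* are hypothetical proteins with the code of beta-glucosidase, an enzyme of cellulose fragments and plant glucosides rather than starch. They stood at 0.0930 and 0.285 FPKM in EcRS, against 3.76 and 8.34 FPKM in EcCK (-5.19 ± 0.87 and -4.86 ± 0.58, edgeR adjusted p = 7.59e-04 and 1.19e-04). *SI65_04812* ends directly before *SI65_04813* on the same strand, and whether they are parts of a single gene was not tested. The near-identical pairs *SI65_01850* with *SI65_02031* and *SI65_01851* with *SI65_02030*, whose FPKM differed by at most 3.27% and 7.76% in any library, are counted in the pathway although reads may have been shared between the copies.

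In EcSQ against EcCK, 3 of 71 tested pathway genes were up- and 3 down-regulated (4.23% each), beside 1.72% and 1.87% of all genes. Without the 3 chosen genes 1 of 68 was up (1.47%) and 3 were down (4.41%). Those up were *SI65_00176* and the 2 chosen starch genes, so no other gene of the pathway was called up, and the median was -0.47, beside -0.01 over all genes. Those down were *SI65_04660*, *SI65_06216* and *SI65_07885*. The counts hung on single libraries: 0 were up and 0 down without EcCK replicate 1, EcCK replicate 2 or EcSQ replicate 2, where 0, 4 and 0 of all genes were called, and 10 up and 6 down without EcSQ replicate 3, where 9.88% of all genes were up and 6.69% down. Between EcRS and EcSQ, 0 of 68 were called with edgeR in either direction, with 21 at an unadjusted p under 0.05. DESeq2 called 3 up and 9 down, beside 458 up (5.27%) and 1067 down (12.3%) of all 8695 genes, and limma on log2(FPKM + 1) called 0. Without EcSQ replicate 3 edgeR called 1 up and 38 down, beside 374 up (4.23%) and 4406 down (49.8%) of all 8842 genes.

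Genes of storage carbohydrates, the fungal counterparts of starch, were called down on ginseng roots in most trehalose genes and, for glycogen, at about the share of all genes, when scaled as the deposited FPKM. Of 14 trehalose genes 11 were down- (78.6%) and 1 up-regulated (7.14%) in EcRS against EcCK, beside 47.6% and 12.8% of all genes. The median was -1.66, beside -0.96. The near-identical trehalose-phosphate synthase genes *SI65_01851* and *SI65_02030*, which may share reads, are both counted among the 11. With TMM scaling 6 were down and 1 up, where 31.4% of all genes were down and 26.4% up. *SI65_06216*, a trehalose-phosphate synthase and phosphatase, fell to 43.5 FPKM in EcRS, against 714.5 FPKM in EcCK (-4.04 ± 0.49, edgeR adjusted p = 1.26e-04). *SI65_00414*, neutral trehalase, which splits trehalose into glucose, fell to 49.0 FPKM in EcRS, against 272.8 FPKM in EcCK (-2.48 ± 0.31, edgeR adjusted p = 1.46e-04). *SI65_07555*, placed in trehalose synthesis, fell to 2.10 FPKM in EcRS, against 35.1 FPKM in EcCK (-4.06 ± 0.25, edgeR adjusted p = 1.15e-05).

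Of 10 tested glycogen genes 2 were up- and 5 down-regulated (50.0%) in EcRS, with a median of -0.86, beside 47.6% down and -0.96 over all genes. The strongest rise was that of *SI65_06076*, UTP-glucose-1-phosphate uridylyltransferase, at 1941 FPKM in EcRS, against 397.4 FPKM in EcCK (2.29 ± 0.34, edgeR adjusted p = 3.92e-04). The largest falls were of regulators rather than enzymes of glycogen: *SI65_01463* and *SI65_01464*, both with transcription factor terms, stood at 1.27 and 2.37 FPKM in EcRS, against 6.53 and 12.3 FPKM in EcCK (-2.35 ± 0.41 and -2.38 ± 0.33, edgeR adjusted p = 9.34e-04 and 2.81e-04). *SI65_01464* also carries the code of a protein kinase and lies directly after *SI65_01463* on the same strand. *SI65_05567*, a protein kinase, had 4.36 FPKM in EcRS and 16.5 FPKM in EcCK (-1.92 ± 0.25, edgeR adjusted p = 1.72e-04). The single alpha-1,3-glucan gene was not called with edgeR in any of the 3 comparisons, with log2 fold changes of -0.63 in EcRS over EcCK, where its unadjusted p was under 0.05, -0.40 in EcSQ over EcCK and -0.23 in EcRS over EcSQ. DESeq2 and limma called it in none.

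Sugar transport genes, which would take up the glucose released from starch, moved in both directions. Of 13 tested in EcRS against EcCK, 4 were up- (30.8%) and 5 down-regulated (38.5%), with a median of 0.54, beside 12.8%, 47.6% and -0.96 over all genes. *SI65_02895*, a Golgi nucleotide-sugar transporter by its GO terms and so not an uptake protein, reached 740.5 FPKM in EcRS, against 147.4 FPKM in EcCK (2.33 ± 0.31, edgeR adjusted p = 2.19e-04). The glucose symporter genes *SI65_06685* and *SI65_06686* are listed at 0 in all 3 EcRS libraries. They had 0 to 1.63 and 0 to 2.12 FPKM in EcSQ, and 2.26 to 16.5 and 1.46 to 22.3 FPKM in EcCK, so no fold is given for them. *SI65_07794* (sey1), which in yeast fuses membranes of the endoplasmic reticulum, was in the list through a hexose transport term and fell to 3.99 FPKM in EcRS, against 58.4 FPKM in EcCK (-3.87 ± 0.31, edgeR adjusted p = 2.01e-05).

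The genes whose pattern was most like that of each gene over the 9 libraries were hypothetical proteins or were annotated to other functions. By Pearson correlation of log2(FPKM + 1), those nearest to *SI65_00177* were *SI65_07420*, *SI65_00208* and *SI65_02123* (0.987, 0.986 and 0.984), all hypothetical proteins. *SI65_00208* lies on contig 1 too, and had 14.4 to 18.9 FPKM in EcRS, 19.6 to 24.4 in EcSQ and 2.21 to 4.72 in EcCK. Those nearest to *SI65_00180* were the Cyanovirin-N lectin gene *SI65_09249*, the respiratory chain subunit gene *SI65_03457* and the hypothetical *SI65_09820* (0.985, 0.985 and 0.984). *SI65_09249* had 2648 to 4569 FPKM in EcRS, 837 to 1482 in EcSQ and 12.2 to 45.0 in EcCK.

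Those nearest to *SI65_00186* were the hypothetical *SI65_00385*, the histone H3 lysine methyltransferase gene *SI65_03057* and *SI65_05726*, coded as an acyltransferase (0.996 each). *SI65_00385* had 1.22, 1.76 and 1.75 FPKM in EcRS, 44.9, 47.0 and 1.96 FPKM in EcSQ, and 122.8, 171.5 and 112.3 FPKM in EcCK, with EcSQ replicate 3 at the EcRS level as for *SI65_00186* itself. The choice of nearest genes was unstable: with a pseudocount of 0.1, 2, 1 and 1 of the 3 nearest were shared for *SI65_00177*, *SI65_00180* and *SI65_00186*, and with Spearman correlation 0 were.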

How the data were processed

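Groups of the 9 RNA-seq libraries were taken from their titles. Per the submitters' processing notes, HISAT2 2.0, StringTie 1.3.0 and Bowtie 0.12.2 were used, with no role given. The authors deposited 1 table with an FPKM and an estimated count for each of 10227 genes in each library. The deposited FPKM were scaled by the authors to all mapped units, including those outside listed genes. Within a library the estimated count of the authors is in a fixed ratio to FPKM times coding length, so counts derive from coverage and their precision is approximate.

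Counts were rounded and fitted with edgeR 4.0.16 in R 4.3.3 (quasi-likelihood test, 2 groups at a time), using as library size the scaling factor behind the FPKM, recovered from genes with at least 200 counts. Genes averaging 1 FPKM or more in the 6 libraries of a comparison were tested, and Benjamini-Hochberg adjustment ran over all of them. A call needed an adjusted p of at most 0.05 and an absolute log2 fold change of at least 1. The procedure was tested on simulated counts with known changes. The 3 genes, the gene lists and the tests were chosen with earlier results of these data known. Genes were named by a rule: the 3 genes, those listed from *SI65_00175* to *SI65_00187*, the amylolytic and exo-1,3-beta-glucanase lists, the 4 largest called changes of each other list in EcRS against EcCK, and the 3 genes most correlated with each gene.

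The main fits did not treat same-numbered libraries as pairs. Deviations from the group means had correlations of 0.12, 0.20 and 0.29 between same-numbered EcRS and EcCK libraries. Between differently numbered ones they were -0.28 to 0.20, so pairing was not settled. The same-numbered values were -0.05, -0.04 and -0.11 for EcSQ with EcCK and 0.21, -0.17 and -0.11 for EcRS with EcSQ. Alternatives were TMM scaling, totals of listed genes, DESeq2 1.42.0, limma 3.58.1 on log2(FPKM + 0.1, 1 or 5), a filter at 5 FPKM or none, no fold threshold, all 9 libraries in 1 fit, a replicate block and the omission of each library. Sequences and other measurements of the study were not analysed here.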

Additional observations from a re-analysis of the deposited data

How the results depend on the processing

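The starch and sucrose pathway counts for EcRS against EcCK (9 up, 39 down) changed by more than 1.5 times only in those up, to 18 with TMM scaling and 18 with DESeq2. Of all genes 26.4% and 27.2% were up in those 2 fits. Omitting each library gave 8 to 11 up and 37 to 41 down, and the replicate block 10 up and 38 down, and the block lost no call of a named gene in that comparison. For EcSQ against EcCK (3 up, 3 down) the counts were 6 and 6 with TMM, 9 and 10 with DESeq2, 7 and 7 with all 9 libraries, 5 up with limma at a pseudocount of 5, and 1 down with limma at 0.1. Over all genes the shares up and down were 4.71% and 4.9% with TMM, 14.0% and 11.4% with DESeq2, and 7.7% and 6.46% with all 9 libraries. The replicate block gave 0 up and 1 down there, beside 0.0983% and 0.273% of all genes, and same-numbered libraries did not deviate together in that comparison. Omitting each library gave 0 to 10 up and 0 to 6 down. For EcRS against EcSQ (0 and 0) DESeq2 gave 3 up and 9 down, all 9 libraries 7 down, and omissions 0 to 1 up and 0 to 38 down. Over all genes the shares up and down there were 5.27% and 12.3% with DESeq2, and 1.34% and 12.6% with all 9 libraries. Without EcSQ replicate 3, the omission that gave 38 down, they were 4.23% and 49.8%. The causes were not tested. Over all alternatives the log2 fold changes of EcRS over EcCK lay at 3.15 to 5.31 for *SI65_00177*, 3.70 to 6.87 for *SI65_00180* and -4.36 to -3.40 for *SI65_00186*. For EcSQ over EcCK they lay at 4.27 to 6.16, 2.90 to 5.78 and -2.23 to -1.12, and for EcRS over EcSQ at -1.39 to -0.73, 0.39 to 1.46 and -3.10 to -1.65. No direction turned.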
